A study of Mus musculus with 32 samples.

Results

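Collagen chains are the polypeptides that assemble in threes, alike or different, into the triple helices of the collagens. They were taken as the protein-coding genes whose symbol is Col, a number, the letter a and a number, which 44 of the 54532 genes in the table met, among 22046 protein-coding genes. By textbook type, 11 encode fibrillar chains, 8 encode chains of basement membranes and their border zone (types IV, XV and XVIII), and 25 encode other chains. The genes were measured by RNA sequencing in liver and in 3 fat depots of wild-type mice, strain label C57/Bl6j, which ate a 60% fat diet for 12 weeks in all groups. The depots were inguinal white fat (iWAT, subcutaneous), epididymal white fat (eWAT, visceral) and brown fat (BAT). Mice then received auranofin, a gold compound used against rheumatoid arthritis whose known target is thioredoxin reductase, or vehicle. The dose was 1 mg per kg, given 3 times weekly over 4 weeks. Every tissue had 4 auranofin and 4 vehicle libraries, 32 in all. The comparisons ask how the collagen classes differ between the tissues and between auranofin and vehicle.

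Fibrillar chains of types I, III and V form the tension-bearing fibrils of connective tissue and are made mainly by fibroblasts and related stromal cells. Type IV chains form the sheet-like network of basement membranes, which surrounds every adipocyte and underlies endothelium, and types XV and XVIII lie where basement membrane meets the matrix. Type VI forms beaded filaments near the cell surface and is abundant in fat, and collagens of several types accumulate in fat and liver during scarring. Whole tissue was sequenced, so fewer cells of a type and less RNA per cell cannot be told apart.

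The feature that names the family is a repeat of glycine followed by any pair of residues, and the coding sequence shows how a fibrillar and a basement membrane chain differ in it. The stretches below are from GENCODE mouse release M21, on GRCm38, with the glycine codons of the repeat in capitals, for Col3a1 (coding bases 490 to 579, chromosome 1, plus strand) and Col4a1 (coding bases 634 to 723, chromosome 8, minus strand).
Col3a1: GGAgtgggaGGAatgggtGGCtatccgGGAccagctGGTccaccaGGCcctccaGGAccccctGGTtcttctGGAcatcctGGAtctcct
Col4a1: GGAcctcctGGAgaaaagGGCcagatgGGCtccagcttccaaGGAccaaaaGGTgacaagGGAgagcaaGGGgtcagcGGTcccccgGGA
Over its 4392 coding bases Col3a1 had 2 unbroken runs of 5 or more such triplets, the longer of 344 triplets. Col4a1, with 5007 coding bases, had 22 runs, the longest of 40 triplets, and the printed stretch holds a break where capital codons stand farther apart.

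Promoters are shown for Col6a5, Col6a6 and Col27a1 because each of these chains reached its level in 1 or 2 of the tissues. RefSeq promoter windows on GRCm38.p6 were found for 35 of the 44 genes. Below are bases before the RefSeq start of Col6a5 (chr9:105960644-105960893, minus strand), Col6a6 (chr9:105828161-105828335, minus strand) and Col27a1 (chr4:63215162-63215411, plus strand). The Col6a6 stretch holds 175 bases, since those nearest its RefSeq start lie inside the gene in GENCODE and were left out. Capitals mark the GC box GGGCGG on either strand.
Col6a5: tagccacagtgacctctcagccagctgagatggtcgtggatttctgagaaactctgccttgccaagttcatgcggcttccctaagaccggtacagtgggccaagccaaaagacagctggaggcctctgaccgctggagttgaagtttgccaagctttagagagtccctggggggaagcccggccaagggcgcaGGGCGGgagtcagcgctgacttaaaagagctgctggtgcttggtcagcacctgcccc
Col6a6: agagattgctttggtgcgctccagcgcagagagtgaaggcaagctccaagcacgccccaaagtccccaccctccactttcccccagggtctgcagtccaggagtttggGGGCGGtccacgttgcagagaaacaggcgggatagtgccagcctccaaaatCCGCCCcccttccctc
Col27a1: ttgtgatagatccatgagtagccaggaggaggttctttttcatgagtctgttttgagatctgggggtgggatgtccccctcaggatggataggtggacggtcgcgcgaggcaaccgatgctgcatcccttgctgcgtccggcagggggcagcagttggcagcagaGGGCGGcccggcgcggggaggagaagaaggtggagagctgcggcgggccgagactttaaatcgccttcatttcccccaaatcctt
The GC box occurred 1 time in the Col6a5 window, 2 times in that of Col6a6 and 1 time in that of Col27a1, without overlap with another motif searched. It occurred in 32.7% of all 32851 promoter windows of 250 bases. The letters CCAAT (in 33.9% of windows) and TATAAA (in 12.4%) are on neither strand of these sequences. In GENCODE the Col27a1 window lies inside the gene, which starts at base 63214004. Col6a5 and Col6a6 are neighbours on the same strand with 27917 bases between them.

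Each library held 13606756 to 19205640 reads in genes, and collagen chains took 0.152% to 0.272% of them in auranofin BAT and 0.552% to 0.996% in auranofin eWAT, against 0.298% to 0.405% in vehicle BAT and 0.883% to 1.30% in vehicle eWAT. Collagen shares were 0.769% to 1.07% in auranofin iWAT and 0.122% to 0.155% in auranofin liver. Vehicle iWAT had 0.720% to 0.966% and vehicle liver 0.134% to 0.150%. Tissue labels fitted their defining markers: the adipokine Adipoq averaged 618 FPKM or more in each fat group, Ucp1, the uncoupling protein of brown fat, averaged 3129 FPKM in auranofin BAT and 2506 FPKM in vehicle BAT, and albumin (Alb) averaged 49197 FPKM in auranofin liver and 45656 FPKM in vehicle liver. FPKM, reads scaled to gene length and a library size, depends on the gene length used by the authors, so levels of different chains are comparable per length only. The library size that the values imply was not the reads in genes. It ran from 10559760 in auranofin liver library 3, with 15214649 reads in genes, to 24013795 in vehicle eWAT library 1, with 17036845. Levels and sums in FPKM carry this scaling wherever tissues or treatments are compared. Tests used log2(FPKM + 1), on which changes of genes near or below 1 FPKM are understated. A chain was tested where its mean reached 0.5 FPKM over the libraries of a fit, which admitted 20 chains in iWAT, 24 in BAT, 23 in eWAT and 17 in liver. The 16 chains admitted in no tissue were Col2a1, Col11a1, Col24a1, Col4a3, Col4a4, Col6a4, Col8a2, Col10a1, Col9a1, Col9a2, Col9a3, Col19a1, Col22a1, Col17a1, Col25a1 and Col26a1, none above 0.739 FPKM in any library. Among the libraries that stood apart within their group were auranofin BAT library 2 and auranofin iWAT library 2, and vehicle eWAT libraries 1 and 2, and results that rest on them are given with and without them. Skeletal muscle markers summed to 1397 FPKM in vehicle and 795 FPKM in auranofin iWAT library 4, where the other iWAT libraries had at most 30.5 FPKM. Liver markers summed to 333 FPKM in vehicle iWAT library 1 and 455 FPKM in auranofin eWAT library 2, the highest of their groups. An alternative fit left out library 4 of both iWAT groups together. The labels do not say that libraries came from separate animals, so p-values measure the spread between these libraries.

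The tissues differed in which collagens led. In vehicle libraries the summed collagen level was 1104 ± 111 FPKM in eWAT, 1066 ± 114 FPKM in iWAT, 466 ± 49.6 FPKM in BAT and 268 ± 8.50 FPKM in liver (SD, n = 4 each). Basement membrane chains made up 53.1% ± 1.399 of it in iWAT, 46.0% ± 3.36 in BAT and 36.8% ± 7.87 in eWAT, and fibrillar chains 32.2% ± 1.34, 36.8% ± 2.62 and 36.1% ± 7.90. The eWAT means rested on libraries 1 and 2. Basement membrane chains took 27.2%, 33.6%, 43.7% and 42.7% in the vehicle eWAT libraries in order, and fibrillar chains 47.8%, 34.4%, 31.4% and 31.0%. In eWAT the other chains took 27.1% ± 3.36, against 14.7% ± 0.112 in iWAT. In liver 1 gene, Col18a1, took 71.2% of the sum, and fibrillar chains took 17.3% ± 3.26. Col4a1 was the highest chain in both iWAT (219 ± 17.6 FPKM) and BAT (103 ± 3.40 FPKM). Col3a1, Col6a1 and Col4a1 lay together at the top in eWAT, at 165 ± 83.6, 159 ± 11.3 and 159 ± 39.0 FPKM, and did not differ beyond their spread.

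**Figure D1:**
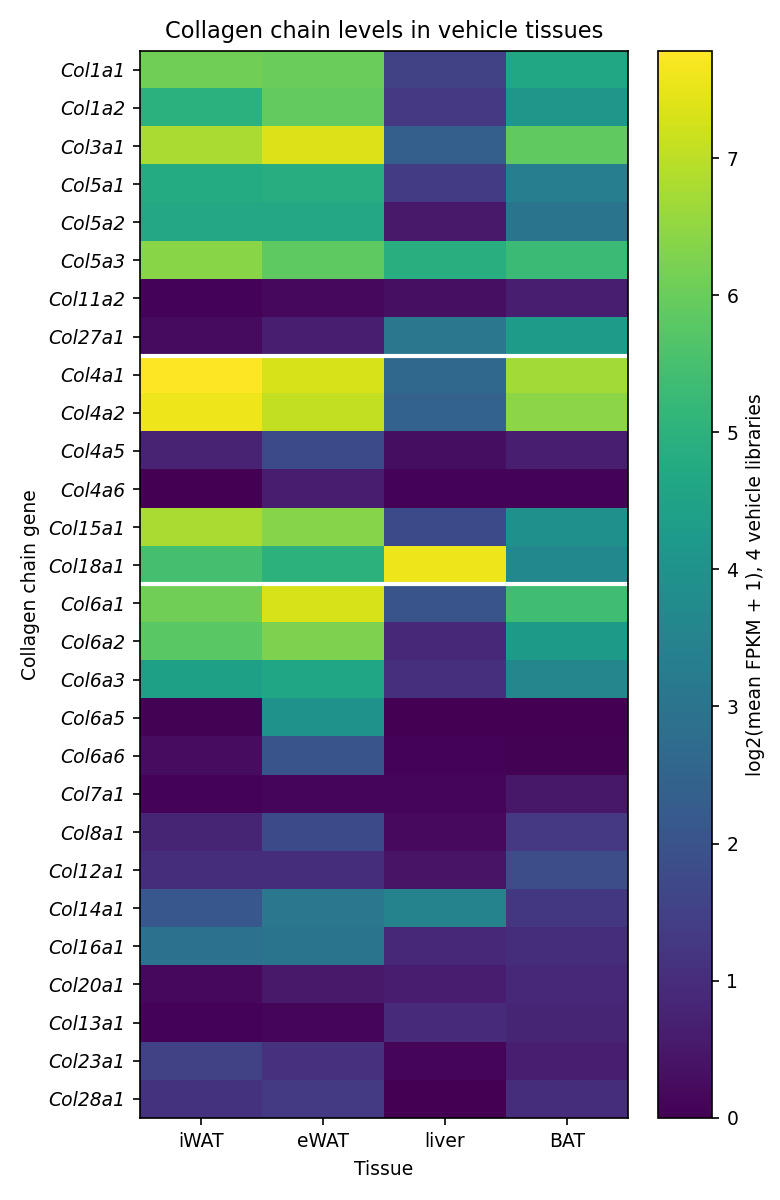
Mean level of the 28 tested collagen chains in the 4 vehicle libraries of each tissue, as log2(mean FPKM + 1) by colour, with white lines between fibrillar, basement membrane and other chains. Col18a1 is bright in liver, Col6a5 has colour only in eWAT, and Col27a1 is brightest in BAT (18.7 FPKM) and liver (7.53 FPKM).

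Among the fibrillar chains, type I and III levels followed the order of fat over liver. Col1a1 (chr11:94936224-94953042), the major chain of type I collagen, had 82.2, 51.7, 60.7 and 61.0 FPKM in the vehicle eWAT libraries and 63.1, 78.5, 65.1 and 63.6 FPKM in those of iWAT. These groups overlapped, and eWAT minus iWAT was -0.09 on the log2 scale (SE 0.254). Vehicle BAT had 32.6, 23.3, 18.4 and 21.7 FPKM, and vehicle liver 1.16, 3.80, 1.98 and 0.752 FPKM, with BAT wholly below both white depots and liver wholly below BAT. Its partner Col1a2 (chr6:4504814-4541544) was higher in eWAT than in iWAT, at 59.4 ± 12.7 against 30.2 ± 7.94 FPKM, a log2 difference of 0.96 (SE 0.239, limma adjusted p = 0.00421). The ratio of Col1a1 to Col1a2 was lower in eWAT, at 1.10 ± 0.209, than in iWAT, at 2.31 ± 0.403, with no overlap between the 4 libraries of each. Col5a3, a regulatory chain of type V, was the fibrillar chain with the smallest drop in liver, with 28.9 ± 3.78 FPKM there.

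Col27a1 (chr4:63214004-63334991), a fibrillar chain best known from cartilage, had another order. It had 20.0, 17.7, 17.3 and 19.7 FPKM in vehicle BAT, against 1.02, 0.255, 0.419 and 0.545 FPKM in vehicle eWAT and 0.165, 0.212, 0.191 and 0.163 FPKM in vehicle iWAT. Every BAT library lay above every white fat library. BAT minus iWAT was 4.05 (SE 0.153, limma adjusted p = 2.91e-11) and BAT minus eWAT was 3.67 (SE 0.153, limma adjusted p = 5.52e-11). The cartilage chains Col2a1 and Col9a1 stayed under 0.05 FPKM in every library, with 12 and 9 reads in all. Other cartilage chains reached at most 0.188 FPKM (Col9a2), 0.237 FPKM (Col10a1) and 0.487 FPKM (Col9a3), while Col11a2 was highest in BAT, at 0.557 ± 0.207 FPKM in vehicle libraries. The sum of 6 cartilage markers outside the collagens was 5.31 ± 0.639 FPKM in vehicle liver, 2.66 ± 0.746 FPKM in BAT, 2.52 ± 0.636 FPKM in eWAT and 1.10 ± 0.286 FPKM in iWAT. The part of cartilage in the Col27a1 values was not tested.

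The major type IV pair, Col4a1 (chr8:11198423-11312826) and Col4a2 (chr8:11312805-11449287), starts head to head with 22 shared bases and kept a near-constant ratio. Col4a1 over Col4a2 was 1.18 ± 0.111 over the 32 libraries (SD), with a range of 0.964 to 1.45, while Col4a1 over Col1a1 ran from 1.59 to 9.56. Both were lower in vehicle eWAT than in vehicle iWAT, with Col4a1 at -0.49 (SE 0.159, limma adjusted p = 0.0199) and Col4a2 at -0.55 (SE 0.175, limma adjusted p = 0.0185). Neither passed without vehicle eWAT library 1, with Col4a1 at -0.41 (limma adjusted p = 0.0641) and Col4a2 at -0.41 (limma adjusted p = 0.0661). Quantile normalisation set Col4a1 to 0.037 and Col4a2 to -0.046. In the auranofin libraries Col4a2 passed at -0.64 (limma adjusted p = 0.0476) and Col4a1, at -0.58 (limma adjusted p = 0.0718), did not. The other type IV chains were scarce. Col4a5 reached 2.35 ± 0.176 FPKM in vehicle eWAT, against 0.671 ± 0.293 FPKM in vehicle iWAT (1.02, SE 0.114, limma adjusted p = 8.69e-06), and its head-to-head neighbour Col4a6 was admitted only in eWAT. Col15a1 (chr4:47208161-47313167), the type XV chain, had 111 ± 11.4 FPKM in iWAT and 82.0 ± 17.2 FPKM in eWAT but 13.9 ± 2.73 FPKM in BAT. BAT minus iWAT was -2.92 (SE 0.169, limma adjusted p = 2.21e-09).

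Col18a1 (chr10:77052178-77166548), the precursor of endostatin, was the liver chain. It had 190.3, 171.9, 207 and 194 FPKM in the vehicle liver libraries. The fat groups had 44.2 ± 0.750 FPKM in iWAT, 30.7 ± 14.2 FPKM in eWAT and 11.4 ± 1.66 FPKM in BAT, and no fat library of either treatment exceeded 50.6 FPKM. Liver minus the mean of the fat depots was 2.92 (SE 0.198, limma adjusted p = 1.50e-09). Its gene shares 8825 bases with Slc19a1 on the other strand, and the libraries keep no strand, so reads from that overlap cannot be assigned to either gene with certainty.

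Type VI chains differed between the white depots in vehicle. Col6a1 (chr10:76708792-76726168) had 152, 164, 147 and 172 FPKM in vehicle eWAT and 63.5, 73.6, 67.6 and 62.6 FPKM in vehicle iWAT, without overlap (1.24, SE 0.154, limma adjusted p = 2.04e-05). Col6a2 was higher in eWAT by 0.46 (SE 0.146, limma adjusted p = 0.0171), and Col6a3, the third chain of the usual heterotrimer, had 23.1 ± 1.90 FPKM in eWAT and 20.5 ± 4.32 FPKM in iWAT, a log2 difference of 0.18 (SE 0.165) that did not pass. Col6a5 (chr9:105856078-105960643), thought to stand in for the third chain, had 16.1, 19.1, 14.0 and 10.2 FPKM in vehicle eWAT. No library of iWAT, BAT or liver reached 0.07 FPKM, in either treatment. The log2 differences were 3.92 for eWAT minus iWAT (SE 0.128, limma adjusted p = 7.68e-11) and -3.94 for BAT minus eWAT (SE 0.128, limma adjusted p = 5.86e-12). Col6a6 (chr9:105687809-105828160), the neighbouring gene, had 3.06 ± 0.737 FPKM in vehicle eWAT and 0.197 ± 0.0570 FPKM in vehicle iWAT (1.74, SE 0.112, limma adjusted p = 1.60e-07). In these vehicle tests Col6a5 and Col6a6 passed the filter on level only through eWAT, where they are high. Their p-values are therefore no separate support.

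Over the 23 chains admitted in the vehicle libraries, 8 passed as higher and 5 as lower in eWAT than in iWAT, where 21.4% and 24.8% of the 14339 genes tested passed in those directions. BAT had 2 chains higher than iWAT, Col27a1 and Col12a1, and 16 lower, against 24.4% and 25.7% of genes. Against eWAT, with the BAT libraries shared, BAT again had Col27a1 and Col12a1 higher and had 18 chains lower, against 25.3% and 27.8% of genes. Liver had 3 chains above the mean of the fat depots, Col18a1, Col14a1 and Col27a1, and 20 below, against 36% and 36.1% of genes. Col12a1, a fibril-associated chain, had 2.54 ± 0.262 FPKM in BAT and 1.03 ± 0.136 FPKM in iWAT (0.80, SE 0.0888, limma adjusted p = 2.41e-06). Col14a1, another fibril-associated chain, had 10.2 ± 2.78 FPKM in liver, and its liver difference was 1.37 (SE 0.236, limma adjusted p = 8.13e-05). In eWAT minus iWAT, Col5a3 had the lowest difference, -0.69 (SE 0.324, limma adjusted p = 0.0961), which did not pass, and Col18a1 the lowest that passed, -0.63 (SE 0.242, limma adjusted p = 0.0429). Further differences were -1.87 for Col18a1 and -1.87 for Col16a1 in BAT minus iWAT, and -2.47 for Col15a1 and -1.99 for Col6a2 in BAT minus eWAT. Liver minus fat was lowest for Col4a1, Col4a2 and Col6a2, at -4.63, -4.56 and -4.54. Chains such as Col6a5 and Col27a1 were admitted through the tissue where they are high, so these counts and the p-values of such chains describe the admitted chains alone. Without vehicle eWAT library 1, 8 chains were higher and 0 lower in eWAT than in iWAT, where 18.2% and 21.2% of genes passed. Col4a1, Col4a2, Col15a1, Col18a1 and Col23a1 were the chains that no longer passed as lower, with Col18a1 then at -0.52 (limma adjusted p = 0.126). In the 16 auranofin libraries, 3 chains passed as higher and 3 as lower in eWAT than in iWAT, where 6.84% and 3.8% of genes did. The higher ones were Col6a5, Col6a6 and Col4a5, which also passed in vehicle. The lower ones were Col4a2 at -0.64, which also passed in vehicle, and Col6a3 at -0.76 and Col28a1 at -0.57, which did not. Col6a1 and Col6a2 did not pass there, with Col6a1 at 0.41 (SE 0.248, limma adjusted p = 0.350).

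**Figure D2:**
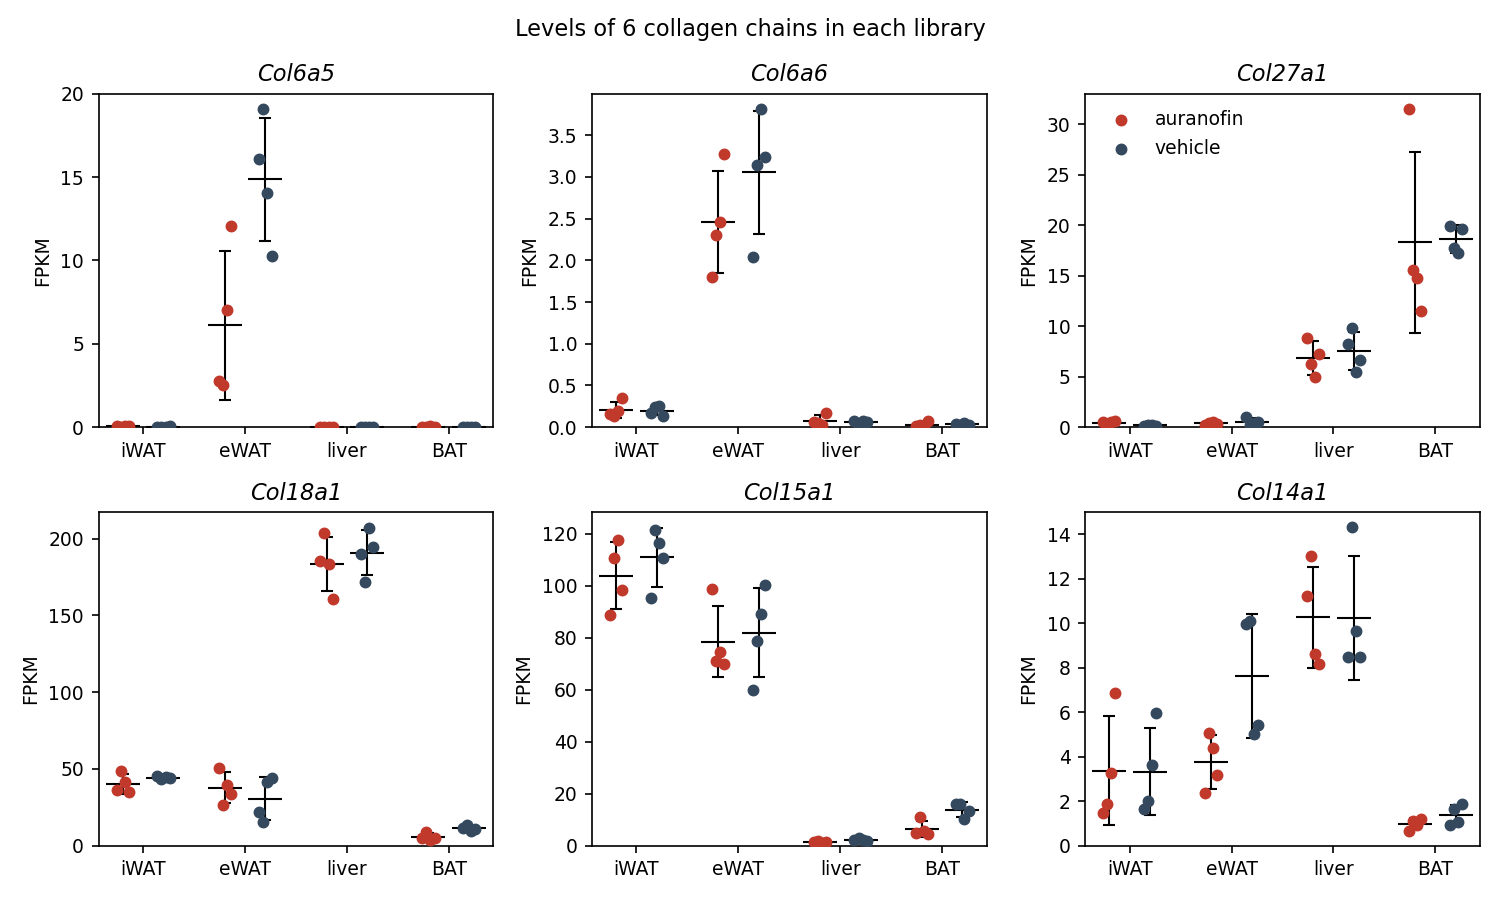
FPKM of 6 collagen chains in each library by tissue, auranofin in red and vehicle in dark blue, with the mean and SD of 4 libraries in black. Col6a5 and Col6a6 are near 0 outside eWAT, Col27a1 is high in BAT and liver, Col18a1 in liver, and Col15a1 in both white depots.

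Auranofin was set against vehicle in each tissue. No collagen chain passed the adjusted threshold of 0.05 in any tissue, in limma or with voom on rebuilt reads. Of all genes tested 0% passed in iWAT, eWAT and liver, and 0.023% in BAT, where the 3 genes that passed were lower and were not collagens. The median log2 change of the tested chains was -0.72 in BAT and -0.33 in eWAT, where that of all genes was 0.02 and 0.00. It was -0.02 in iWAT and -0.05 in liver, where that of all genes was -0.02 and -0.01. With no filter on low values, which adds chains at or near 0 FPKM, the median was -0.03 over 43 chains in BAT and -0.04 over 44 in eWAT. With the gene-length trend removed it was -0.69 in BAT and -0.21 in eWAT.

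**Figure D3:**
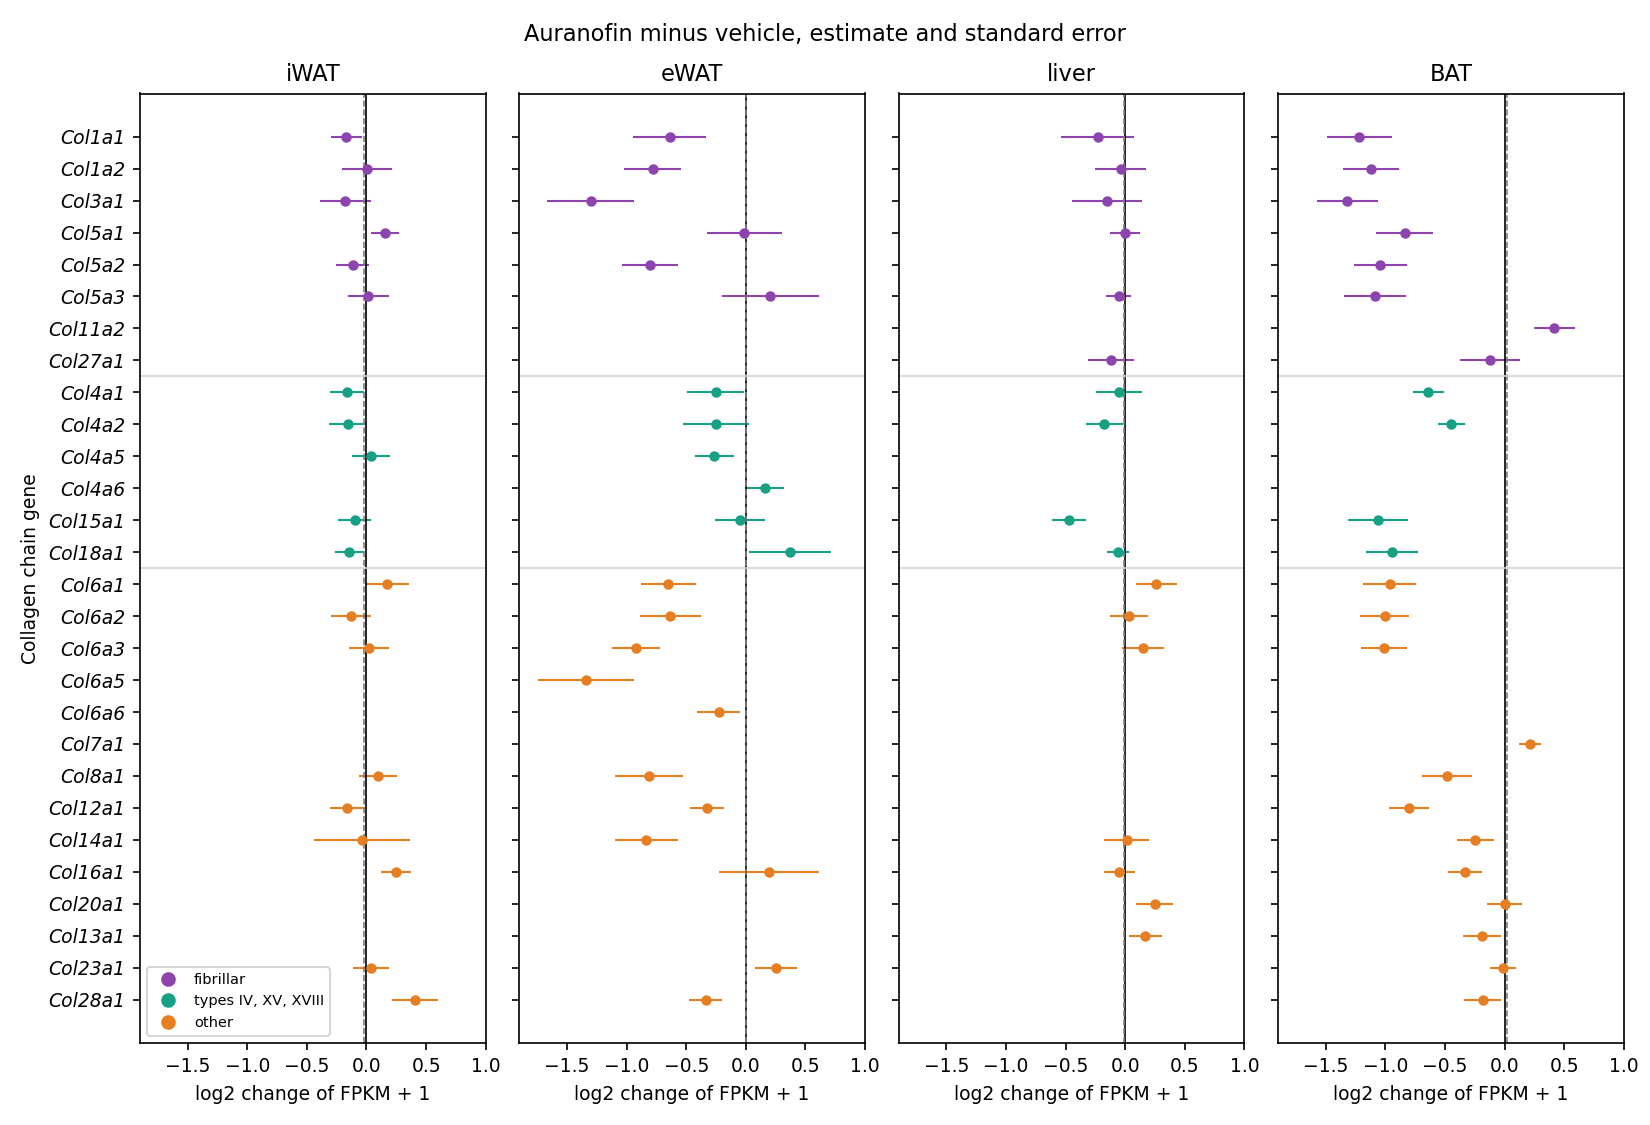
Log2 change of FPKM + 1, auranofin minus vehicle, for each tested collagen chain (points, coloured by class) with its standard error (bars), in each tissue, where the dashed line is the median of all genes tested. In BAT 21 of 24 points lie below 0 and in eWAT 18 of 23, while in iWAT and liver the points lie on both sides of 0.

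In BAT, 16 of the 24 tested chains had an unadjusted p under 0.05 and were lower with auranofin, where 6.5% of all genes did so, and 1 chain, Col11a2, was higher, where 4.66% did. In all, 21 of the 24 chains were below 0, as were 45% of genes. In 12 chains all 4 auranofin libraries lay below all 4 vehicle libraries, as in 3.05% of genes, and in Col7a1, a chain that anchors epithelia, all 4 lay above, as in 2.28%. The smallest adjusted p of a chain was 0.212. The groups sum up likewise: fibrillar chains totalled 84.3, 123, 69.6 and 69.0 FPKM in auranofin BAT, against 214, 167, 142 and 167 FPKM in vehicle BAT. Basement membrane chains totalled 136, 182, 123 and 125 FPKM in auranofin BAT and 224, 220.0, 209 and 201 FPKM in vehicle BAT. The ratio of means was 0.502 for fibrillar, 0.663 for basement membrane and 0.524 for other chains. No class overlapped between treatments, and auranofin library 2 was nearest to vehicle in each.

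**Figure D4:**
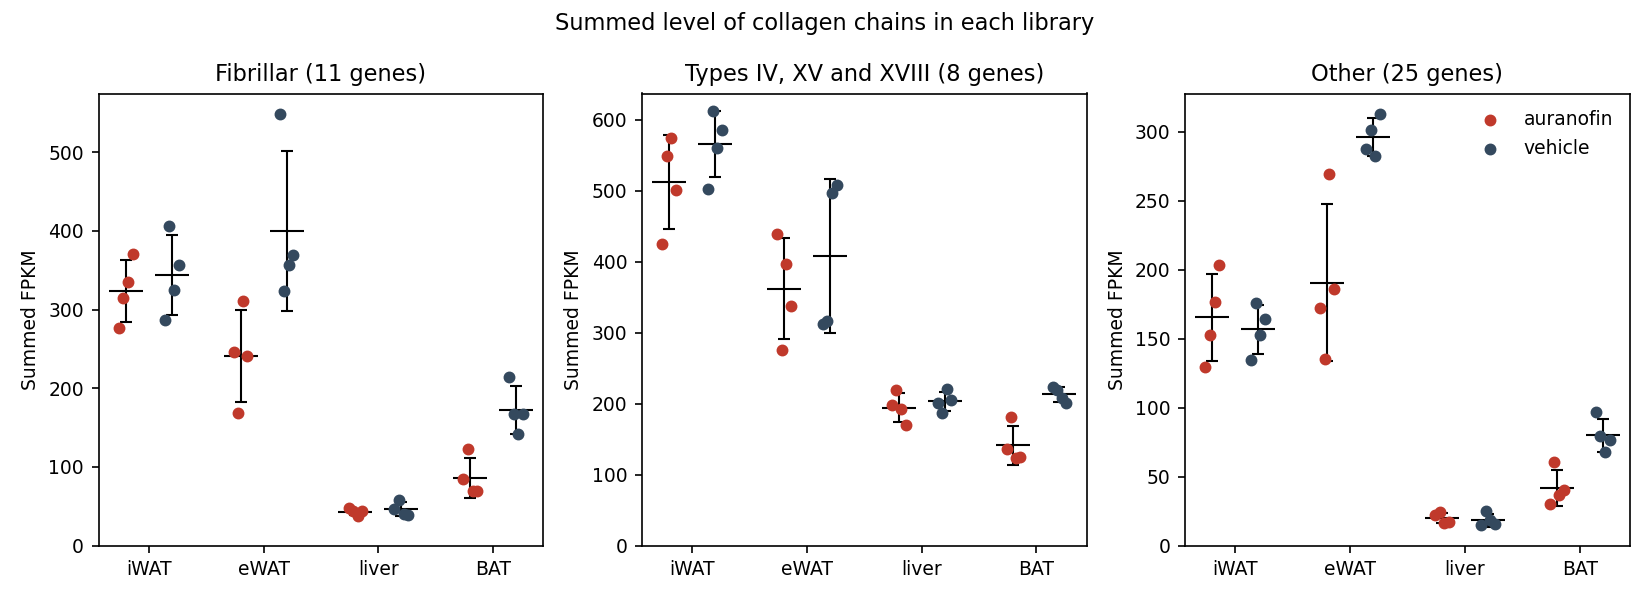
Summed FPKM of the fibrillar, basement membrane and other collagen chains in each library by tissue, auranofin in red and vehicle in dark blue, with the mean and SD of 4 libraries in black. In BAT all 4 auranofin sums lie below all 4 vehicle sums in each panel, while in iWAT and liver they overlap.

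Of the fibrillar chains in BAT, Col1a1 had 6.67, 16.5, 7.03 and 10.4 FPKM with auranofin, against 32.6, 23.3, 18.4 and 21.7 FPKM with vehicle. Its log2 change was -1.22 (SE 0.272, limma adjusted p = 0.220). Col1a2 had 4.90, 10.6, 5.54 and 7.08 FPKM with auranofin and 21.8, 16.4, 11.6 and 15.1 FPKM with vehicle (-1.12, SE 0.236, limma adjusted p = 0.212). Col3a1 (chr1:45311538-45349706), the type III chain, had 15.9, 35.1, 20.0 and 21.4 FPKM with auranofin, against 78.4, 54.9, 40.4 and 59.2 FPKM with vehicle. At -1.32 (SE 0.256, limma adjusted p = 0.212) it had the largest change of the tested chains in BAT. In these 3 genes no auranofin library reached the lowest vehicle library. The type V chains Col5a1, Col5a2 and Col5a3 had log2 changes of -0.84, -1.04 and -1.09. The low-level Col11a2 went the other way in value, with 1.02, 0.554, 1.59 and 1.23 FPKM with auranofin against 0.538, 0.712, 0.707 and 0.271 FPKM with vehicle (0.42, SE 0.172, limma adjusted p = 0.424). Col27a1, the chain with its highest level in BAT, was at -0.12 (SE 0.255), with auranofin library 1 at 31.5 FPKM and the others between 11.5 and 15.5 FPKM.

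Of the basement membrane chains in BAT, Col4a1 had 63.8, 85.8, 59.5 and 56.4 FPKM with auranofin, against 106, 103, 103 and 98.0 FPKM with vehicle (-0.64, SE 0.132, limma adjusted p = 0.212). Col4a2 had 61.8, 75.0, 53.7 and 58.5 FPKM with auranofin and 88.9, 86.3, 85.3 and 78.1 FPKM with vehicle (-0.45, SE 0.114, limma adjusted p = 0.254). Neither overlapped between treatments. Col15a1 had 4.80, 10.9, 5.51 and 4.47 FPKM with auranofin and 16.1, 15.9, 10.3 and 13.3 FPKM with vehicle, and library 2 of auranofin lay above the lowest vehicle library (-1.06, SE 0.250, limma adjusted p = 0.222). Col18a1 had 5.25, 9.10, 3.68 and 4.73 FPKM with auranofin and 11.6, 13.6, 9.80 and 10.6 FPKM with vehicle (-0.94, SE 0.218, limma adjusted p = 0.220). The Col18a1 groups did not overlap.

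The 3 usual type VI chains had near-equal changes in BAT. Col6a3 (chr1:90765923-90843971), whose cleaved end is the adipokine endotrophin, had 3.79, 7.92, 4.47 and 4.42 FPKM with auranofin and 13.6, 10.7, 9.68 and 10.5 FPKM with vehicle. Its log2 change was -1.01 (SE 0.192, limma adjusted p = 0.212), the smallest unadjusted p of the chains. Col6a1 had 13.8, 31.0, 18.9 and 20.5 FPKM with auranofin and 50.4, 39.7, 33.9 and 38.8 FPKM with vehicle (-0.96, SE 0.222, limma adjusted p = 0.220). Col6a2 had 6.51, 13.4, 7.17 and 7.80 FPKM with auranofin and 22.5, 17.0, 15.9 and 16.6 FPKM with vehicle (-1.004, SE 0.205, limma adjusted p = 0.212). No auranofin library reached the vehicle range in any of the 3. The fibril-associated Col12a1 was at -0.80 (SE 0.168), and Col14a1 was at -0.24 (SE 0.154).

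**Figure D5:**
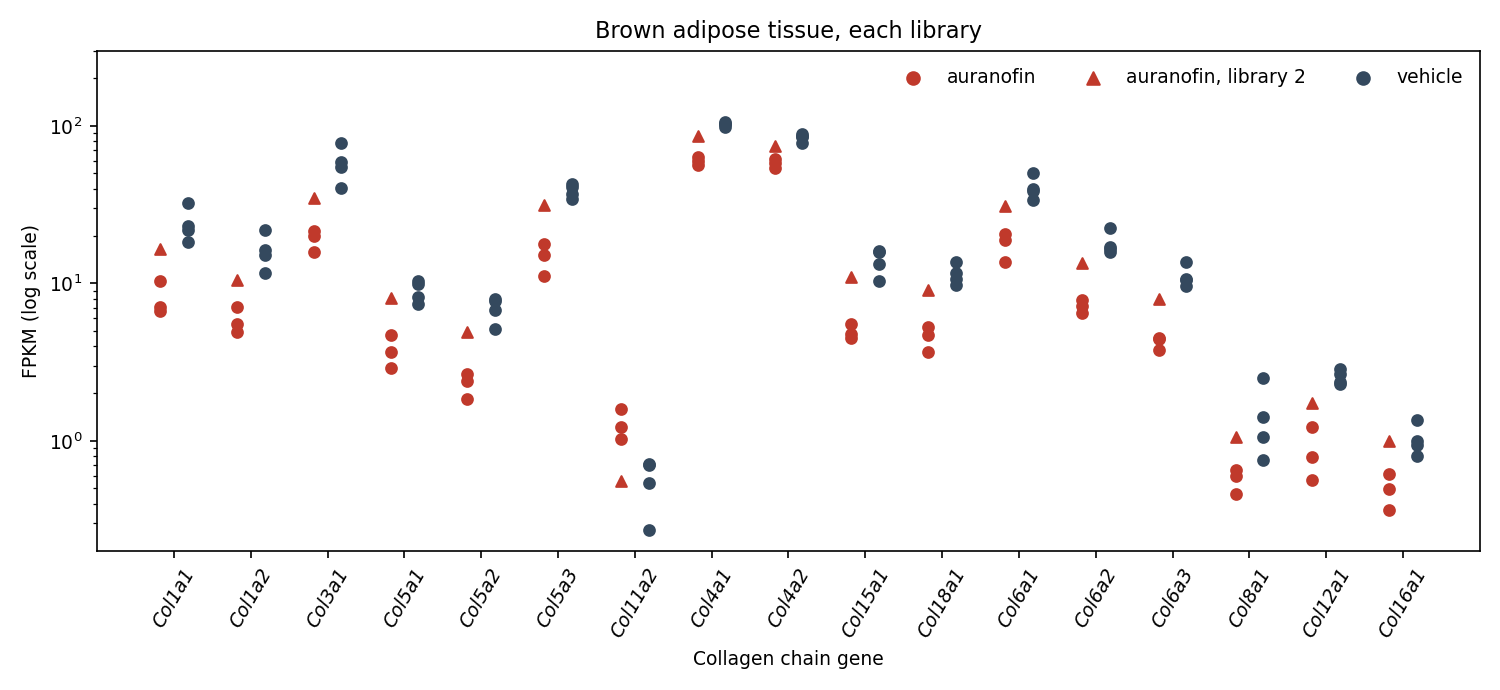
FPKM on a log axis of the 17 chains with an unadjusted p under 0.05 in BAT, in each auranofin (red, library 2 as triangles) and vehicle (dark blue) library. Library 2 of auranofin is the highest auranofin library in each chain but Col11a2, where it is the lowest.

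The calls in BAT turned on auranofin library 2. Without it 14 chains passed as lower, where 1.43% of the 13046 genes tested passed as lower: Col1a1, Col1a2, Col3a1, Col5a1, Col5a2, Col5a3, Col4a1, Col4a2, Col15a1, Col18a1, Col6a1, Col6a2, Col6a3 and Col12a1. Col3a1 was then at -1.53 (limma adjusted p = 0.0157) and Col6a3 at -1.21 (limma adjusted p = 0.00564). That library also had the highest sum of 10 skeletal muscle markers, 2553 FPKM, where auranofin library 4 had 1050.0 FPKM, the other auranofin libraries had 2.79 and 3.16 FPKM and vehicle libraries ran from 3.18 to 627 FPKM. A fit of all 32 libraries together called 9 chains as lower, where 0.666% of genes were: Col3a1, Col6a1, Col15a1, Col1a1, Col6a2, Col1a2, Col5a2, Col6a3 and Col12a1.

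Most genes that process or accompany collagen were also below 0 in BAT. Of the 9 tested procollagen proteinases and cross-linking enzymes, 0 passed the adjusted threshold in limma, 9 were below 0 and 8 had an unadjusted p under 0.05, with a median of -0.51. Of all genes tested in BAT 45% were below 0 and 6.5% were lower at that level. Lox, which starts cross-linking, had 8.22 ± 3.00 FPKM with auranofin and 16.2 ± 1.97 FPKM with vehicle (-0.95, SE 0.197, limma adjusted p = 0.212). All 14 fibril-associated proteoglycans and glycoproteins were below 0, 6 of them with an unadjusted p under 0.05, among them tenascin C (Tnc), at 0.999 ± 0.686 FPKM with auranofin and 3.42 ± 0.629 FPKM with vehicle, and lumican (Lum), at 5.22 ± 0.766 FPKM with auranofin and 9.74 ± 1.82 FPKM with vehicle. Of 12 basement membrane partners of type IV collagen 10 were below 0, with a median of -0.25, and the laminin chain Lamc1 had 15.4 ± 4.33 FPKM with auranofin and 23.9 ± 1.85 FPKM with vehicle. Of 15 TGF-beta pathway genes 12 were below 0, with a median of -0.18. Of 20 hydroxylases and folding factors 16 were below 0, with a median of -0.16. Of 7 collagen receptors 5 were below 0, and of 4 collagenases and gelatinases 4.

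Markers of some other cells also differed between the BAT groups. Their counts are read against 45% of all genes below 0 and 6.5% lower at an unadjusted p under 0.05. All 8 macrophage markers were below 0 and all had an unadjusted p under 0.05 (median -0.80), and their sum was 17.0 to 34.5 FPKM with auranofin, highest in library 2, and 34.3 to 66.3 FPKM with vehicle. Of 9 tested fibroblast and progenitor markers 8 were below 0 (median -0.40), and the sum of the 10 listed was 132 to 192 FPKM with auranofin and 203 to 260.1 FPKM with vehicle. Of 10 endothelial markers 4 were below 0 (median 0.07), and their sums overlapped, at 279 to 338 FPKM with auranofin and 271 to 404 FPKM with vehicle. Pericyte, smooth muscle and stellate markers, 6 of 7 tested below 0 (median -0.20), had sums of 140 to 230 FPKM with auranofin and 153 to 224 FPKM with vehicle, which overlapped. All 4 brown adipocyte markers were above 0 (median 0.48), with sums of 12215, 7541, 11528 and 11402 FPKM with auranofin and 9058, 8274, 8989 and 5400 FPKM with vehicle. Auranofin library 2 was the lowest of its group in that sum and lay within the vehicle range. All 4 general adipocyte markers were above 0 too (median 0.15). No mesothelial or keratinocyte marker reached the filter in BAT. The part of these cells in the collagen values was not tested.

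In eWAT, 11 of 23 tested chains had an unadjusted p under 0.05 and were lower with auranofin, where 6.13% of genes did so, and none was higher, where 5.32% did. Of the 23, 18 were below 0, as were 49.6% of genes. In 5 chains, Col6a3, Col3a1, Col5a2, Col1a2 and Col12a1, the auranofin libraries lay wholly below the vehicle libraries, as in 3.95% of genes. In none did they lie wholly above, as they did in 3% of genes, and the smallest adjusted p was 0.429. Col3a1 had 63.3, 35.2, 85.4 and 73.9 FPKM with auranofin, against 288, 148, 112 and 113 FPKM with vehicle (-1.30, SE 0.369). Col6a3 had 13.7, 7.43, 12.8 and 14.1 FPKM with auranofin, against 24.8, 24.6, 21.5 and 21.3 FPKM with vehicle (-0.92, SE 0.201). Col5a2, a type V chain, had 18.4, 8.38, 14.3 and 16.01 FPKM with auranofin and 30.5, 25.3, 21.9 and 22.1 FPKM with vehicle (-0.80, SE 0.234). Vehicle library 1 was the highest of its group in all 3.

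Of the class sums in eWAT, only the overlap of the basement membrane sum depended on vehicle libraries 1 and 2. Vehicle libraries 3 and 4 also lay above all auranofin libraries in the fibrillar and other sums. Differences between classes were not tested. Fibrillar chains totalled 246, 168, 311 and 241 FPKM with auranofin and 549, 324, 356 and 369 FPKM with vehicle, and other chains 172, 135, 269 and 186 FPKM with auranofin and 288, 301, 283 and 313 FPKM with vehicle, each without overlap. Basement membrane chains totalled 439, 276, 397 and 337 FPKM with auranofin and 312, 316, 497 and 508 FPKM with vehicle, which overlapped. Vehicle libraries 3 and 4 alone lay above all auranofin libraries in the basement membrane sum. For Col18a1 vehicle libraries 1 and 2 had 21.98 and 15.4 FPKM and libraries 3 and 4 had 41.3 and 44.1 FPKM. Without vehicle libraries 1 and 2 its change was -0.22, that of Col4a1 -0.56, that of Col3a1 -0.87 and that of Col6a3 -0.82, and 0 chains passed. Col6a5 had 2.79, 2.55, 7.03 and 12.1 FPKM with auranofin and 16.1, 19.1, 14.0 and 10.2 FPKM with vehicle, with overlap (-1.34, SE 0.406, limma adjusted p = 0.429). A fit of all 32 libraries called Col3a1, Col1a2, Col5a2, Col6a3, Col6a5 and Col8a1 as lower in eWAT, where 5.7% of genes were.

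The chains of types I, IV and VI in the single eWAT libraries show how far each group spread. Col1a1 had 49.0, 22.2, 63.4 and 37.3 FPKM with auranofin and 82.2, 51.7, 60.7 and 61.0 FPKM with vehicle (-0.64, SE 0.307, limma adjusted p = 0.429). Col1a2 had 35.7, 22.4, 42.9 and 36.7 FPKM with auranofin and 75.0, 64.3, 50.3 and 47.8 FPKM with vehicle (-0.78, SE 0.237, limma adjusted p = 0.429). Auranofin library 3 alone reached the vehicle range of Col1a1, while Col1a2 did not overlap. Col6a1 had 86.5, 78.9, 156 and 95.9 FPKM with auranofin and 152, 164, 147 and 172 FPKM with vehicle (-0.65, SE 0.231, limma adjusted p = 0.429). Col6a2 had 52.2, 29.6, 71.7 and 45.2 FPKM with auranofin and 67.7, 70.3, 73.8 and 85.4 FPKM with vehicle (-0.63, SE 0.254, limma adjusted p = 0.429). For both, auranofin library 3 lay within the vehicle range and the other 3 below it. Col4a1 had 159.7, 99.1, 143 and 127 FPKM with auranofin and 130.4, 120.0, 192 and 192 FPKM with vehicle (-0.25, SE 0.239, limma adjusted p = 0.598). Col4a2 had 129, 76.2, 136 and 103 FPKM with auranofin and 97.5, 98.9, 170.2 and 168 FPKM with vehicle (-0.25, SE 0.278, limma adjusted p = 0.650). For this pair the groups overlapped, with auranofin library 2 lowest. Col15a1 had 98.6, 71.2, 74.6 and 69.7 FPKM with auranofin and 59.8, 78.8, 89.1 and 100.2 FPKM with vehicle (-0.05, SE 0.209, limma adjusted p = 0.913). Col18a1 had 50.6, 26.6, 39.6 and 33.8 FPKM with auranofin and 21.98, 15.4, 41.3 and 44.1 FPKM with vehicle (0.37, SE 0.346, limma adjusted p = 0.591). For these the groups overlapped too, with auranofin library 1 highest among its group.

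Counts for the matrix genes around collagen in eWAT are read against 49.6% of all genes below 0 and 6.13% lower at an unadjusted p under 0.05. Of 11 proteinases and cross-linking enzymes 10 were below 0, 2 of them at that level, and Loxl2 had 4.31 ± 1.04 FPKM with auranofin and 10.2 ± 4.45 FPKM with vehicle. Of 6 collagenases and gelatinases 5 were below 0, all 5 with an unadjusted p under 0.05. They include Mmp14, a membrane-bound matrix metalloproteinase, at 10.9 ± 1.29 FPKM with auranofin and 18.3 ± 3.36 FPKM with vehicle, and Mmp2, at 26.1 ± 6.37 FPKM with auranofin and 52.1 ± 19.4 FPKM with vehicle. Lum had 39.0 ± 11.1 FPKM with auranofin and 124 ± 72.5 FPKM with vehicle, in a list of 14 with 10 below 0. The 16 TGF-beta pathway genes had 10 below 0 (median -0.10) and the 12 partners of type IV collagen 5 below 0 (median 0.13). Of 19 hydroxylases and folding factors 13 were below 0, and of 8 receptors 5. Macrophage markers were below 0 in 8 of 8 (median -0.84), with sums of 174 to 550 FPKM with auranofin and 483 to 1282 FPKM with vehicle, highest in vehicle libraries 1 and 2. Fibroblast and progenitor markers were below 0 in 10 of 10 (median -0.45), with sums of 544 to 1017 FPKM with auranofin and 828 to 1290.5 FPKM with vehicle. Adipocyte markers were above 0 in 4 of 4 (median 0.64), with sums of 4484 to 8143 FPKM with auranofin and 2356 to 5279 FPKM with vehicle, lowest in vehicle library 1. Endothelial markers were above 0 in 9 of 10 (median 0.17), with sums of 241 to 322 FPKM with auranofin and 134 to 295 FPKM with vehicle, lowest in vehicle libraries 1 and 2. The part of these cells in the collagen values was not tested.

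In iWAT, 0 of 20 tested chains had an unadjusted p under 0.05, where 9.17% of genes were higher and 12.8% lower at that level, and 10 chains lay on each side of 0, where 52.2% of genes were below 0. The groups overlapped in all 20 chains, while 2.77% of genes were wholly higher and 2.41% wholly lower with auranofin. Changes ran from -0.18 for Col3a1 to 0.41 for Col28a1. The summed fibrillar level was 324 ± 39.4 FPKM with auranofin and 344 ± 50.5 FPKM with vehicle, and the basement membrane level 512 ± 66.0 FPKM with auranofin and 565 ± 46.6 FPKM with vehicle. As mean shares of reads in genes, fibrillar chains took 0.345% with auranofin and 0.317% with vehicle, and basement membrane chains 0.438% and 0.422%. The libraries overlapped in both shares. Col28a1, a chain known from peripheral nerve, had 1.92, 0.920, 2.90 and 2.29 FPKM with auranofin and 1.16, 1.13, 1.38 and 1.13 FPKM with vehicle (0.41, SE 0.197, limma adjusted p = 0.246). Auranofin library 2 was its lowest value, and the other 3 auranofin libraries lay above all vehicle libraries. Without library 2 it passed, at 0.61, where 15.1% of genes were higher. All 6 Schwann cell markers were above 0 in iWAT, 5 with an unadjusted p under 0.05, and their sum was 40.4, 7.92, 55.3 and 128 FPKM with auranofin and 6.97, 5.86, 15.6 and 6.34 FPKM with vehicle. The part of nerve in the Col28a1 value was not tested. The sum of 10 fibroblast and progenitor markers was 766 to 1157 FPKM with auranofin and 1104 to 1339 FPKM with vehicle. Adipocyte markers summed to 6955, 10829, 5826 and 6231 FPKM with auranofin and 9310 to 9954.5 FPKM with vehicle. Brown adipocyte sums were 22.9 to 144 FPKM with auranofin, highest in library 2, and 112 to 179 FPKM with vehicle. Endothelial sums were 418, 233, 416 and 333 FPKM with auranofin and 263 to 318 FPKM with vehicle. Macrophage sums were 77.3 to 125 and 64.4 to 134 FPKM in that order. The part of these cells in the collagen values was not tested.

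The single iWAT libraries overlapped in each chain described here. Of the fibrillar chains, Col1a1 had 52.1, 63.4, 56.2 and 68.2 FPKM with auranofin and 63.1, 78.5, 65.1 and 63.6 FPKM with vehicle (-0.17, SE 0.131, limma adjusted p = 0.425). Col1a2 had 23.7, 27.6, 29.6 and 39.4 FPKM with auranofin and 22.3, 41.0, 27.0 and 30.5 FPKM with vehicle (0.00, SE 0.207, limma adjusted p = 0.990). Col3a1 had 74.7, 84.1, 107 and 127 FPKM with auranofin and 92.1, 149.8, 102 and 100.1 FPKM with vehicle (-0.18, SE 0.213, limma adjusted p = 0.613). Vehicle library 2 was the highest of its group in all 3. Col4a1 had 163, 208, 216 and 197 FPKM with auranofin and 196, 238, 221 and 222 FPKM with vehicle (-0.16, SE 0.142, limma adjusted p = 0.475). Col4a2 had 136, 181, 198 and 169 FPKM with auranofin and 166, 208, 177 and 209 FPKM with vehicle (-0.16, SE 0.159, limma adjusted p = 0.538). Auranofin library 1 was the lowest library for this type IV pair. Col15a1 had 88.8, 111, 118 and 98.3 FPKM with auranofin and 95.3, 122, 116 and 111 FPKM with vehicle (-0.10, SE 0.139, limma adjusted p = 0.679). Col18a1 had 36.3, 48.8, 41.5 and 34.7 FPKM with auranofin and 45.1, 43.4, 44.5 and 43.9 FPKM with vehicle (-0.14, SE 0.125, limma adjusted p = 0.482). Vehicle libraries of Col18a1 lay within a narrow range inside that of auranofin. Col6a1 had 59.8, 61.7, 84.0 and 104 FPKM with auranofin and 63.5, 73.6, 67.6 and 62.6 FPKM with vehicle (0.17, SE 0.185, limma adjusted p = 0.566). Col6a2 had 37.1, 56.2, 50.1 and 54.1 FPKM with auranofin and 43.2, 61.2, 51.1 and 60.1 FPKM with vehicle (-0.13, SE 0.169, limma adjusted p = 0.652). Col6a3 had 16.8, 19.6, 24.4 and 22.1 FPKM with auranofin and 15.6, 25.6, 18.9 and 22.1 FPKM with vehicle (0.02, SE 0.170, limma adjusted p = 0.950). Of the type VI chains Col6a1 had its highest values in auranofin libraries 3 and 4. Col16a1 had 8.74, 8.06, 6.71 and 7.69 FPKM with auranofin and 5.63, 7.43, 5.34 and 7.38 FPKM with vehicle (0.25, SE 0.128, limma adjusted p = 0.263). Col5a1 had 29.3, 28.4, 30.3 and 31.4 FPKM with auranofin and 22.8, 28.9, 25.4 and 30.4 FPKM with vehicle (0.16, SE 0.114, limma adjusted p = 0.404). Col16a1 is fibril-associated and Col5a1 is the type V chain that starts type I fibrils, and both overlapped.

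The directions in iWAT depended on scaling. On the TPM scale, which sets every library to the same FPKM sum, the median change of all genes in iWAT was 0.23, and Col1a1, Col3a1, Col4a1, Col4a2, Col15a1, Col18a1 and Col6a2, all below 0 as deposited, were between 0.10 and 0.19. That scale set the median of all genes to -0.14 in eWAT and -0.10 in BAT. Around collagen in iWAT, 4 of 15 TGF-beta pathway genes and 5 of 12 partners of type IV collagen were higher at an unadjusted p under 0.05, where 9.17% of genes were, and 0 passed the adjusted threshold in limma. In the fibril-associated list 2 of 14 were higher at that level, among them the thrombospondin Thbs1, at 21.1 ± 3.95 FPKM with auranofin and 12.0 ± 1.07 FPKM with vehicle (0.76, SE 0.142, limma adjusted p = 0.204). Of the type IV partners, Pxdn, a peroxidase that cross-links type IV collagen, had 33.9 ± 2.12 FPKM with auranofin and 27.0 ± 3.12 FPKM with vehicle. Tgfb3, a TGF-beta ligand, had 5.61 ± 0.534 FPKM with auranofin and 4.41 ± 0.163 FPKM with vehicle. The lists of hydroxylases and folding factors (8 of 19), proteinases and cross-linking enzymes (5 of 11), receptors (2 of 7), collagenases (3 of 5) and fibril-associated proteins (3 of 14) had these counts below 0. The 12 type IV partners summed to 1486, 2553, 1823 and 1792.5 FPKM with auranofin and 2334 to 2502 FPKM with vehicle. The 21 listed hydroxylases and folding factors summed to 1734, 3030, 2015 and 1931 FPKM with auranofin and 2724 to 2989.5 FPKM with vehicle. In both sums auranofin library 2 lay above the vehicle range and the other auranofin libraries lay below it. The sums of the 16 TGF-beta pathway genes overlapped. Such sums weigh the highest genes most.

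In liver, 1 of 17 tested chains had an unadjusted p under 0.05. It was Col15a1, lower with auranofin, where 3.54% of genes were lower and 2.5% higher at that level. In all, 11 chains were below 0, as were 52.3% of genes, and the groups overlapped in all 17, while 1.52% of genes were wholly higher and 2.2% wholly lower with auranofin. Col15a1 had 1.30, 1.91, 1.01 and 1.42 FPKM with auranofin and 2.30, 3.06, 2.11 and 1.87 FPKM with vehicle (-0.47, SE 0.142, limma adjusted p = 0.790), and auranofin library 2 lay just above the lowest vehicle library. Col18a1, the leading liver chain, had 185, 204, 183 and 161 FPKM with auranofin and 190.3, 171.9, 207 and 194 FPKM with vehicle, which overlapped (-0.06, SE 0.0941). Its share of the collagen sum was 71.2% with auranofin and 71.2% with vehicle. All 6 tested fibrillar chains were below 0, from -0.23 for Col1a1 (SE 0.309) to 0.00 for Col5a1 (SE 0.126). Vehicle library 2 was the highest of its group in Col1a1, Col1a2, Col3a1, Col6a1 and Col6a3, and without it Col1a1, Col1a2 and Col3a1 were at 0.04, 0.16 and 0.11. Fibronectin (Fn1) had 113 ± 4.62 FPKM with auranofin and 140.4 ± 12.7 FPKM with vehicle (-0.31, SE 0.0820, limma adjusted p = 0.790).

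After Col18a1 the highest chains in vehicle liver were Col5a3, Col14a1 and Col27a1, at 28.9, 10.2 and 7.53 FPKM. Chains of types I, III, IV and VI were lower there, and the groups overlapped in each of those given here. Col1a1 had 1.82, 1.93, 1.04 and 0.701 FPKM with auranofin and 1.16, 3.80, 1.98 and 0.752 FPKM with vehicle (-0.23, SE 0.309, limma adjusted p = 0.908). Col1a2 had 1.48, 1.65, 1.28 and 0.893 FPKM with auranofin and 0.934, 2.54, 1.55 and 0.795 FPKM with vehicle (-0.04, SE 0.214, limma adjusted p = 0.983). Col3a1 had 3.87, 4.64, 2.53 and 2.58 FPKM with auranofin and 2.67, 7.27, 4.47 and 2.20 FPKM with vehicle (-0.15, SE 0.293, limma adjusted p = 0.940). Vehicle library 2 was the highest of all 8 for these fibrillar chains. Col4a1 had 5.82, 6.97, 3.58 and 4.06 FPKM with auranofin and 4.41, 6.70, 5.56 and 4.31 FPKM with vehicle (-0.05, SE 0.192, limma adjusted p = 0.974). Col4a2 had 4.598, 4.93, 3.32 and 2.79 FPKM with auranofin and 3.72, 5.01, 4.93 and 4.25 FPKM with vehicle (-0.18, SE 0.154, limma adjusted p = 0.856). The type IV pair was lowest in auranofin libraries 3 and 4. Col6a1 had 4.45, 4.28, 3.22 and 3.37 FPKM with auranofin and 1.89, 4.11, 3.44 and 2.92 FPKM with vehicle (0.26, SE 0.173, limma adjusted p = 0.831). Col6a2 had 0.959, 1.31, 0.569 and 0.705 FPKM with auranofin and 0.543, 1.25, 0.889 and 0.681 FPKM with vehicle (0.03, SE 0.160, limma adjusted p = 0.980). Col6a3 had 1.68, 1.45, 0.966 and 1.01 FPKM with auranofin and 0.756, 1.82, 0.932 and 0.795 FPKM with vehicle (0.15, SE 0.175, limma adjusted p = 0.896). Among type VI chains vehicle library 1 was the lowest library for each. Col20a1 had 0.512, 0.670, 1.197 and 0.786 FPKM with auranofin and 0.410, 0.340, 0.902 and 0.391 FPKM with vehicle (0.25, SE 0.158, limma adjusted p = 0.822). Col20a1, a fibril-associated chain, was highest in library 3 of each treatment.

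The difference of the auranofin change between tissues was tested directly, and these tests share libraries with those within tissues. No chain passed in any of the 4 tests. For iWAT minus BAT the share of genes that passed was 0.0224%, and for the others 0%. Differences below 0 were found in 18 of 22 chains for eWAT minus iWAT, 8 of 25 for eWAT minus BAT, 0 of 22 for iWAT minus BAT and 4 of 24 for liver minus fat, against 50.6%, 51.5%, 50.9% and 51.4% of genes. Between iWAT and BAT, 15 of 22 chains had an unadjusted p under 0.05 and a difference above 0, where 9.76% of genes did, with Col6a3 at 1.03 (SE 0.268, limma adjusted p = 0.107) and Col6a1 at 1.14 (SE 0.302, limma adjusted p = 0.107). The outcome rested on a few libraries: 13 chains passed without auranofin iWAT library 2, where 11.3% of genes passed as higher, and 11 chains passed without auranofin BAT library 2, where 1.7% did. Between eWAT and iWAT, 8 of 22 chains had an unadjusted p under 0.05 and a difference below 0, where 10.3% of genes did, and the smallest adjusted p was 0.177. Without auranofin iWAT library 2, Col6a3 and Col28a1 passed, where 5.42% of genes passed as lower. Between eWAT and BAT, 4 of 25 chains were above 0 and 1 was below 0 at that level, where 3.32% and 2.52% of genes were. The 4 are Col15a1, Col18a1, Col5a3 and Col12a1, at 1.01, 1.32, 1.29 and 0.47, and the 1 below is Col6a5 at -1.35 (SE 0.442, limma adjusted p = 0.777). Between liver and the mean of the fat depots, 8 of 24 chains were above 0 at that level, where 3.01% of genes were, led by Col6a3 at 0.79 (SE 0.225, limma adjusted p = 0.453).

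The make-up of the collagen sum was set side by side in BAT, with no test. Type IV chains took 48.4% ± 2.76 of it with auranofin and 40.6% ± 3.46 with vehicle, and the ranges of 44.3% to 50.3% and 36.7% to 45.0% overlapped. Col4a1 over Col1a1 was 7.17 ± 2.18 with auranofin and 4.45 ± 0.945 with vehicle, with overlapping ranges of 5.21 to 9.56 and 3.26 to 5.57. In BAT the ranges of Col1a1 over Col1a2, Col3a1 over Col1a1 and Col6a1 over Col6a3 overlapped between treatments. Col1a1 over Col1a2 was 1.41 ± 0.125 with auranofin and 1.48 ± 0.0730 with vehicle, Col3a1 over Col1a1 was 2.35 ± 0.356 with auranofin and 2.42 ± 0.223 with vehicle, and Col6a1 over Col6a3 was 4.10 ± 0.435 with auranofin and 3.65 ± 0.103 with vehicle. Col4a1 over Col4a2 was 0.964 to 1.14 with auranofin and 1.195 to 1.26 with vehicle, without overlap. In eWAT, Col3a1 over Col1a1 was 1.55 ± 0.315 with auranofin and 2.52 ± 0.816 with vehicle, which overlapped. Vehicle libraries 1 and 2 had ratios of 3.51 and 2.87, and vehicle libraries 3 and 4 had 1.84 and 1.85. Basement membrane chains took 45.9% ± 4.57 of the eWAT sum with auranofin and 36.8% ± 7.87 with vehicle. The ranges of 40.6% to 51.2% and 27.2% to 43.7% overlapped. Vehicle libraries 1 and 2 had 27.2% and 33.6%. Vehicle libraries 3 and 4 had 43.7% and 42.7%, within the auranofin range. Errors are SD over 4 libraries.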

How the data were processed

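The deposited table held FPKM per gene for 32 libraries of total RNA made with a kit that does not keep strand, per the labels' protocols. The submitters' processing notes name STAR 2.6.1d, featureCounts 1.5.0-p3, DESeq2 1.20.0, CASAVA and mm10, without roles. No sample column was left unused. Values were tested as log2(FPKM + 1) with limma 3.58.1 in R 4.3.3, with an intensity trend, a mean of at least 0.5 FPKM over the libraries of the fit, and Benjamini-Hochberg adjustment over all genes tested, with a threshold of 0.05. Auranofin was compared with vehicle within each tissue, tissues within vehicle, and the auranofin changes between tissues. Values were whole multiples of what 1 read is worth within a tolerance of 0.1 reads, and reads in genes were rebuilt from them, 13606756 to 19205640 per library, for depth and for voom as an alternative. Replicate numbers were not used to pair libraries. The script steps were tested on simulated data. Members and lists were chosen with earlier results of these data known. All chains could be named. By the rule, the chains of types I, III, IV, XV and XVIII and the 3 usual type VI chains, and per tissue the 3 chains with the smallest p, are given by library, tissue contrasts name the 3 largest changes a direction, and pathway examples come from the 2 genes of each list with the smallest p. Alternatives were scaling, filter, pseudocount, weights, length trend, replicate block, a common fit and left-out libraries.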

Additional observations from a re-analysis of the deposited data

Results flagged for a closer look

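In 114 groups of 4 libraries, the highest or lowest value was set against the others by Dixon's test at 95%, which chance passes in about 1 group in 20, and 8 values passed. In BAT, auranofin library 2 was high in Col15a1, at 10.9 FPKM where the other 3 had 4.47 to 5.51 FPKM, and in Col6a3, at 7.92 FPKM where the others had 3.79 to 4.47 FPKM. Vehicle BAT library 1 was high in Col6a2, at 22.5 FPKM. In eWAT, auranofin library 1 was high in Col15a1, at 98.6 FPKM where the others had 69.7 to 74.6 FPKM. In iWAT, vehicle library 2 was high in Col1a1, at 78.5 FPKM, and vehicle library 3 in Col28a1, at 1.38 FPKM. In liver, vehicle library 2 was high in Col6a3, at 1.82 FPKM, and vehicle library 3 in Col20a1, at 0.902 FPKM.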

How the results depend on the processing

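No chain passed in iWAT, eWAT, liver or BAT under most alternatives tried. The exceptions were 1 chain in iWAT with sample quality weights, Col28a1, higher, where 20% of genes were, 6 in eWAT and 9 in BAT in a fit of all 32 libraries, and the left-out libraries below. For the difference of the auranofin change, weights gave 4 chains below 0 of 22 for eWAT minus iWAT, where 13.5% of genes passed in that direction, and 16 above 0 of 22 for iWAT minus BAT, where 14.5% did. In the 16 auranofin libraries 6 chains passed between eWAT and iWAT, where 13 did in vehicle. With each library left out in turn, 0 to 14 chains passed in BAT, 0 to 1 in iWAT and 0 in eWAT and liver. Differences between tissues gave 0 to 2 for eWAT minus iWAT, 0 to 13 for iWAT minus BAT and 0 for the other tests. Vehicle eWAT minus iWAT gave 8 to 14, where 46.2% of all genes tested passed in the main fit. The cause of these moves was not tested.

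In iWAT, quantile normalisation turned Col1a1, Col3a1, Col4a1, Col4a2, Col15a1, Col18a1 and Col6a2 to 0.18, 0.24, 0.32, 0.29, 0.30, 0.17 and 0.20, and the TPM scale to 0.11, 0.10, 0.12, 0.12, 0.19, 0.14 and 0.15. Col1a2 there was -0.0310 with weights, -0.10 with the gene-length trend removed and -0.11 without library 4 of both treatments. Col6a3 was -0.087 with the trend removed, and Col6a1 was -0.00979 without library 4 of both treatments. In eWAT, Col18a1 was -0.22 with weights and -0.22 without vehicle libraries 1 and 2, and Col15a1 was 0.0041 with the trend removed. In liver, weights gave 0.013 for Col1a2 and 0.066 for Col4a1. Quantile normalisation gave 0.037 for Col4a1 in vehicle eWAT minus iWAT. With single libraries left out, iWAT ranges were -0.13 to 0.16 for Col1a2, -0.10 to 0.13 for Col6a3 and -0.23 to 0.0010 for Col6a2, and Col15a1 in eWAT was -0.19 to 0.054. Liver ranges were -0.44 to 0.044 for Col1a1, -0.17 to 0.16 for Col1a2, -0.35 to 0.11 for Col3a1, -0.19 to 0.074 for Col4a1, -0.069 to 0.13 for Col6a2 and -0.11 to 0.0011 for Col18a1. None of these changes passed. The median change of the chains, an alternative summary added after seeing the data, was -0.99 to -0.03 in BAT, -0.63 to -0.04 in eWAT, -0.13 to 0.24 in iWAT and -0.10 to 0.08 in liver over all settings, and nearest to 0 in BAT and eWAT with no filter on low values.

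With the replicate block, 0 chains passed in the 4 auranofin comparisons and in the 4 differences between tissues, and 12 between vehicle eWAT and iWAT. In the main fit 46.2% of all genes tested passed between vehicle eWAT and iWAT. Correlations of same-numbered libraries were -0.343 to 0.283 between tissues (12 of 48 pairs over 0.1) and -0.206 to 0.387 between treatments (7 of 16 pairs over 0.1). Libraries with different numbers were not correlated for reference, so these values cannot decide whether the numbers mark pairs. The labels do not say that they do, and the numbers were not taken as pairs. Chains with a mean under 0.5 FPKM were not tested, and at or near that level changes on the log2(FPKM + 1) scale are understated.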
